A study of Homo sapiens with 10 samples.

Results

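The cytosolic ribosomal protein genes are the genes for the protein parts of the ribosome that works outside mitochondria. They were taken from the gene count table by symbol, as RPL or RPS followed by a number and at most A, X, L or L1, together with RPLP0, RPLP1, RPLP2 and RPSA, and pseudogene rows were left out. Of 57353 gene symbols, 84 had such a name and 82 had a mean of at least 10 counts over the 10 samples, 50 of the large subunit and 32 of the small subunit. The remaining pair, RPL3L and RPL39L, had 11 and 2 counts in all samples together. Just inside the limit stood RPL10L, RPS10 and RPL36A, with mean counts of 53.8, 65.7 and 142. All 82 genes passed the filter on low counts and were tested among 17230 genes.

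The samples were LNCaP-C4-2 cells, a castration-resistant prostate cancer line derived from LNCaP, with lower or higher expression of CPT1A, the enzyme that loads long-chain fatty acids onto carnitine for entry into mitochondria. Lentivirus had given the cells a non-targeting shRNA (NT, 2 samples), an shRNA against CPT1A (KD, 3 samples), empty virus (EV, 2 samples) or the CPT1A cDNA (OE, 3 samples). All were grown in RPMI with serum, with puromycin selection for the shRNA lines and blasticidin for the OE and EV lines, so KD is compared with NT, and OE with EV. One line of each kind is described and no separate transduction, so p-values measure the spread between samples of a line.

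The ribosome is built from a small subunit, which reads the mRNA, and a large subunit, which joins amino acids. Most of its proteins are present as a single copy in each ribosome, and their mRNAs are among the most abundant of a growing cell. Many of these mRNAs begin with a run of pyrimidines, the 5′ terminal oligopyrimidine (TOP) motif, through which mTOR signalling controls their translation and, with the protein LARP1, their stability.

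Counts per sample ranged from 23555205 to 28615770. CPT1A, in counts per 1000000 reads after TMM scaling (CPM), was at 265 and 262 in NT and 81.2, 86.4 and 86.2 in KD, and at 326 and 318 in EV and 869.8, 914 and 861 in OE. All 10 markers of luminal prostate cells were tested, and 4 of 12 markers of basal, stromal, blood and endothelial cells passed the filter. Over all genes, KD replicate 2 and OE replicate 2 stood apart from the rest of their lines, where chi-square over its degrees of freedom was 6.70 and 6.93 for the pairs with KD replicate 2 and 2.29 for the remaining pair, and 3.81 and 4.38 against 2.15 in OE. As the measure is a share of the mRNA, fewer transcripts per cell and more of other transcripts cannot be told apart.

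Ribosomal protein genes took 9.75% and 9.79% of all counts in NT, and 6.62%, 7.09% and 6.66% in KD. In the other arm they took 8.06% and 7.92% in EV and 7.38%, 7.58% and 7.21% in OE. Every KD sample lay below every other sample, and the controls did not overlap, since both EV samples lay between NT and OE. These shares are not TMM-scaled. After TMM scaling the summed CPM overlapped between EV, at 79813 and 77843, and OE, at 77426, 80797 and 75906. The large subunit genes held 6.44% ± 0.0212 of the counts in NT (SD, n = 2), 4.44% ± 0.180 in KD (n = 3), 5.26% ± 0.0636 in EV (n = 2) and 4.81% ± 0.125 in OE (n = 3). The small subunit genes held 3.34% ± 0.00707, 2.35% ± 0.0808, 2.74% ± 0.0354 and 2.58% ± 0.0600 in the same order.

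**Figure D1:**
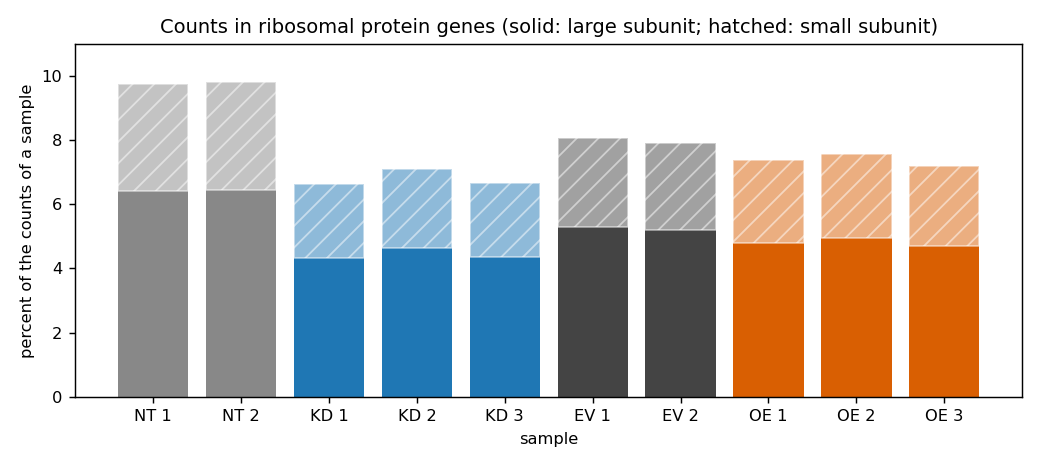
Percent of each sample's counts (y axis, from 0) in ribosomal protein genes, for the 10 samples (x axis), with the large subunit as the solid part and the small subunit as the hatched part of a bar. The 3 KD bars, 6.62% to 7.09%, are the lowest and the 2 NT bars, 9.75% and 9.79%, the highest.

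Ribosomal protein mRNA was lower in KD than in NT across both subunits. The EV control was also lower than NT, as given below. With edgeR's quasi-likelihood test and Benjamini-Hochberg adjustment over all tested genes, at an adjusted p under 0.05, 79 of the 82 genes fell in KD against NT and 1 rose. Among all tested genes 28.4% fell and 29.1% rose. The median log2 fold change was -0.58, a level 0.670 times that of NT, against -0.02 over all tested genes. The subunits were close, with medians of -0.59 for the large (49 fell, 1 rose) and -0.55 for the small (30 fell, 0 rose), and the central 50% of the 82 genes lay between -0.69 and -0.44. Every KD sample was below every NT sample for 79 genes and above for 1, orders that 35.7% and 34.9% of all tested genes show. Without KD replicate 2, 79 fell and 1 rose. At the study's own limit, an adjusted p under 0.0001, 71 fell and 1 rose, against 12.8% and 16.4% of all tested genes.

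The gene with the widest fall among the abundant members was RPL7 of the large subunit. RPL7 was at 1932 and 1709 CPM in NT and at 865, 934 and 881 in KD. The KD samples lay far below NT, and the log2 fold change was -1.03 ± 0.0542 (SE; edgeR, Benjamini-Hochberg adjusted p = 7.44e-14). RPL23, a large subunit protein that also binds MDM2, was at 1375 and 1326 CPM in NT and 689, 749 and 702 in KD, a log2 change of -0.92. RPL31, at the exit of the peptide tunnel, went from 759 and 761 CPM to 386, 431 and 403, a log2 change of -0.90. RPS27, a zinc finger protein of the small subunit, went from 1300.5 and 1299 to 691, 755 and 679, a log2 change of -0.88. For these 3 genes too the lines did not overlap, and NT samples lay near each other.

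RPL10L had the most negative estimate, -1.08, but at 3.21 and 4.21 CPM in NT and 1.69, 2.05 and 1.53 in KD it rests on few reads. RPL10L is a retrotransposed copy of RPL10, known from testis. The gene that rose was RPL7L1, a relative of RPL7 linked to ribosome assembly. RPL7L1 stood at 153 and 156 CPM in NT and 262, 260.2 and 253 in KD, a log2 change of 0.74 ± 0.0451 (edgeR, Benjamini-Hochberg adjusted p = 9.83e-13). Among the 2 genes not called was RPS10, named after its values were seen, at -0.08 (edgeR, Benjamini-Hochberg adjusted p = 0.707). Its level was low, 2.43 to 3.30 CPM in NT, KD and EV. In GENCODE v44, 84% of the exon bases of RPS10 are shared with the read-through gene RPS10-NUDT3 on the same strand. The row of RPS10-NUDT3 held 0 counts in every sample. Of reads assigned to RPS10 and its named pseudogenes, 87.3% lay in the latter. Of these rows RPS10P7 was at -0.80 in KD, and RPS10P3 and RPS10P5 were not called. How the authors counted reads that fit more than 1 gene was not stated, so the level of RPS10 may be that of a part of the reads only.

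The OE line differed from EV in both directions, as it did over all tested genes. In OE against EV 17 genes rose, 31 fell and 34 were not called, against 25.6% higher and 26.4% lower among all tested genes, and the median log2 fold change was -0.06. Every OE sample was above every EV sample for 21 genes, against 33.3% of all tested genes, and below for 38, against 35.6%. The large subunit had 8 genes higher and 20 lower with a median of -0.08, and the small subunit 9 higher and 11 lower with a median of -0.02. The split depended on scaling. With library size alone in place of TMM, which moved the median of all tested genes by -0.10, 9 were higher and 48 lower, and with an offset for transcript length 5 were higher and 48 lower. An offset for GC content gave 11 higher and 36 lower, and both offsets with the replicate block 7 and 43. At an adjusted p under 0.0001, 5 rose and 17 fell, against 11.6% and 10.3% of all tested genes. Without EV replicate 2 the split at 0.05 was 9 higher and 29 lower, without EV replicate 1 it was 16 and 20, and without OE replicate 2 it was 13 and 31. Of 27 named genes called in OE, the GC offset made the change of 17 smaller by over 1.5 times. Values with it are therefore given beside some of the genes below, and values without that mention carry no offset.

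All 17 genes that rose in OE fell in KD, and so did all 31 that fell in OE. Of the 34 not called in OE, 31 fell in KD. OE against EV and KD against NT share no sample, and across the 82 genes their log2 fold changes had a Spearman correlation of 0.50, described over genes that share libraries, GC content and length and are not independent replicates.

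**Figure D2:**
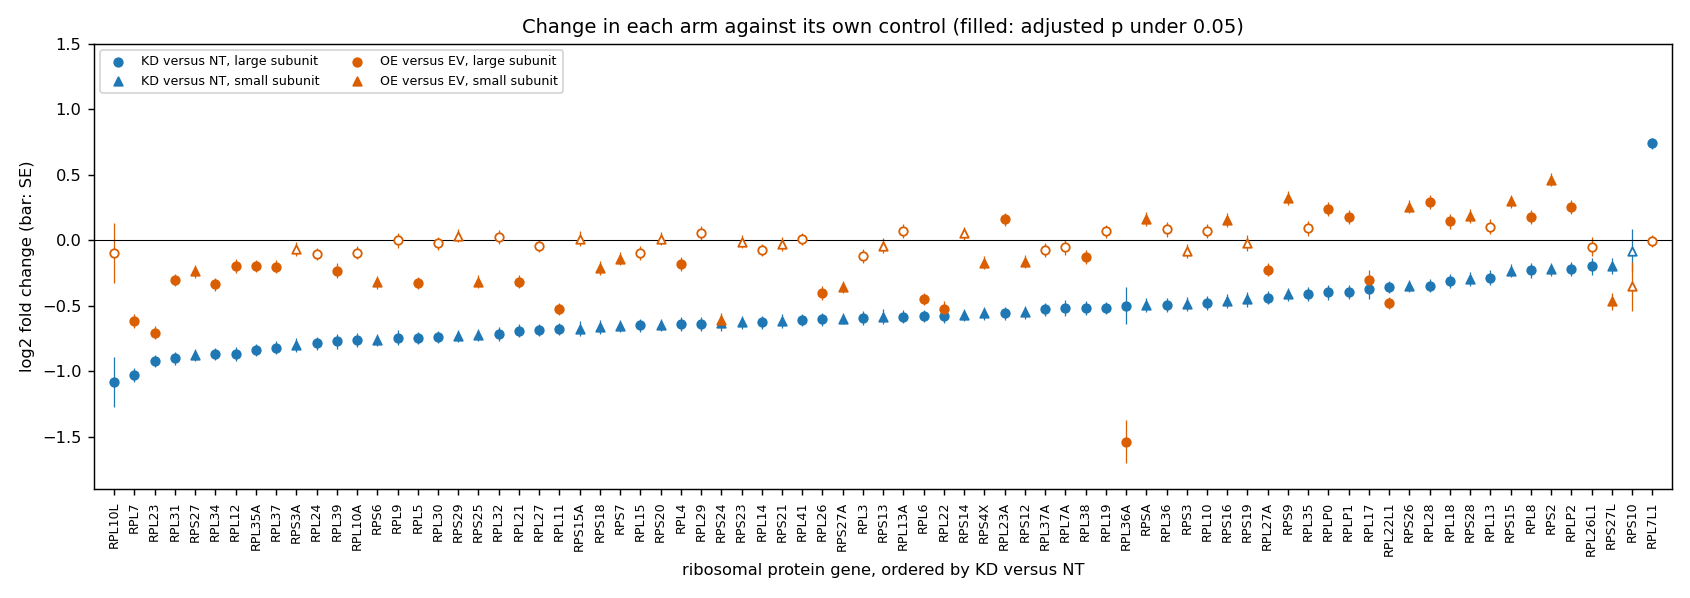
The log2 fold change (y axis, bar: SE) of 77 of the 82 ribosomal protein genes (x axis, ordered by KD versus NT), in blue for KD versus NT and in orange for OE versus EV, with circles for the large and triangles for the small subunit, and filled where the adjusted p was under 0.05. The blue points lie below 0 for 76 of the 77 genes plotted, while the orange points lie on both sides of 0.

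The highest OE change without an offset belonged to RPS2, a small subunit protein of the mRNA entry site. RPS2 was at 3222 and 3295 CPM in EV and at 4362, 4688 and 4430.1 in OE, with all OE samples above EV. Its log2 fold change was 0.46 ± 0.0526 (edgeR, Benjamini-Hochberg adjusted p = 1.08e-07), and it was 0.23 with the GC offset and 0.15 with the block and both offsets. With the length offset it was 0.30, below RPL28 at 0.35. The other tested genes within 5 Mb of RPS2, on chromosome 16, had a median of 0.39 in the same comparison, and 9.07% of reads assigned to RPS2 and its named pseudogenes lay in the latter. The part of either in the result was not tested.

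RPS9, a core protein of the small subunit that helps set decoding accuracy, rose by 0.33 in OE, from 614 and 601 CPM to 753, 812 and 721. RPS15 rose by 0.30 and RPL28 by 0.29, from 689 and 678 to 831, 872 and 817 CPM and from 1185 and 1149 to 1411, 1503 and 1376 CPM. No OE sample of these 3 genes overlapped EV. All 3 lie on chromosome 19, where genes within 5 Mb had medians of 0.11 around RPS9, 0.37 around RPS15 and 0.04 around RPL28. With the GC offset RPS9 was at 0.10, RPS15 at 0.04 and not called, and RPL28 at 0.12. With the replicate block, GC and length offsets together RPS15 turned to -0.03 and RPS9 was no longer called.

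RPL36A, a large subunit protein encoded on the X chromosome, had the lowest OE change at few reads. RPL36A stood at 7.53 and 7.34 CPM in EV and 2.59, 2.31 and 2.75 in OE, a log2 change of -1.54 ± 0.164 (edgeR, Benjamini-Hochberg adjusted p = 4.33e-08). All OE samples lay below EV. Its exon bases overlap RPL36A-HNRNPH2 on the same strand for 43.8%, and that read-through row held 0 counts in every sample. RPL23 was at 1048 and 983 CPM in EV and 633, 601 and 634 in OE, a change of -0.71. RPL7 went from 1145 and 1098 to 745, 689 and 759 CPM, a change of -0.62. RPS24, mutated in some families with Diamond-Blackfan anaemia, went from 1252 and 1232 to 852, 721 and 865 CPM, a change of -0.61. RPL11, which with RPL5 carries the 5S rRNA and inhibits MDM2, went from 501 and 489 to 352, 329 and 351 CPM, a change of -0.53. None of these 4 overlapped between OE and EV, and all 4 had also fallen in KD. With the GC offset the OE changes were -1.31 for RPL36A, -0.58 for RPL23, -0.35 for RPL7, -0.49 for RPS24 and -0.54 for RPL11.

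**Figure D3:**
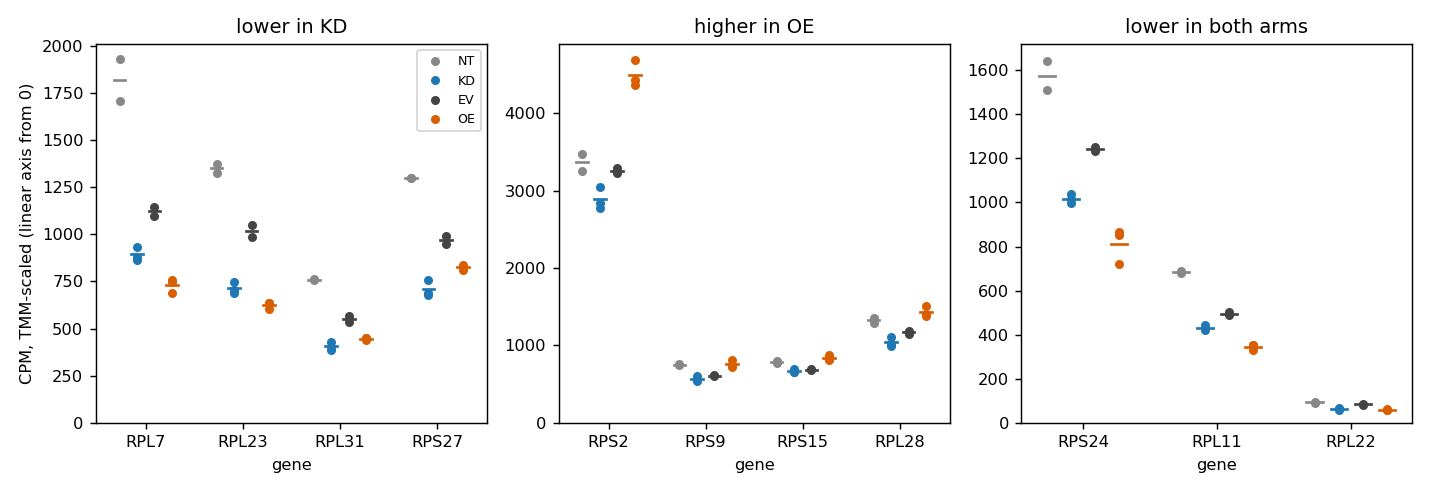
CPM after TMM scaling (y axis from 0, a separate scale per panel) of selected ribosomal protein genes (x axis), one point per sample, a line at each mean, and colours for NT (grey), KD (blue), EV (dark grey) and OE (orange). RPS2 reaches 4362 to 4688 in OE and 3222 and 3295 in EV, and RPL7 falls in both arms.

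The difference between the arms was tested as an interaction, the OE change minus the KD change. By this measure 70 genes were higher in OE against EV than in KD against NT and 3 lower, with 20.3% higher and 24% lower among all tested genes. At 0.0001, 59 were higher and 1 lower, against 6.94% and 8.98%. The median was 0.54 on the log2 scale, 0.54 in each subunit, against -0.02 over all tested genes. Among the largest were RPL10L of the large subunit at 0.99, with few reads, and RPS29 of the small subunit at 0.77. RPS29 was at 382 and 392 CPM in NT, 224, 247 and 229 in KD, 313 and 296 in EV and 309, 325 and 304 in OE. Its KD samples were lowest and its OE and EV samples overlapped. The OE change of RPS29 was 0.04 and its KD change -0.73.

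The 3 genes lower in the interaction were RPL36A at -1.04, RPL7L1 at -0.75 and RPS27L at -0.27, of which RPS27L was not called with the length or the GC offset. RPL10L was not called without NT replicate 2 or without EV replicate 2. The remaining 9 genes were not called, among them RPL11 at 0.15 (edgeR, Benjamini-Hochberg adjusted p = 0.0579), RPS24 at 0.02, RPL22 at 0.06 and RPL22L1 at -0.12.

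The controls differed too, and they enter the interaction in full. CPT1A was at 326 and 318 CPM in EV and at 265 and 262 in NT. In EV against NT 71 genes were lower and 1 higher (RPL7L1, at 0.45), against 15.5% lower and 18.5% higher among all tested genes, with a median of -0.31. Both EV samples lay below both NT samples for 79 genes and above them for 1, orders of 33.9% and 34.1% of all tested genes. At 0.0001, 36 were lower and 1 higher, against 2.91% and 5.25%. NT had the highest mean of the 4 lines for 70 genes, and KD the lowest for 62 and OE for 18. When OE was compared with KD directly, without the controls, 56 genes were higher, 13 lower and 13 not called, with 29.2% higher and 30.6% lower among all tested genes and a median of 0.25. The vector and the selection drug differ between EV and NT and cannot be told apart.

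The P-stalk proteins RPLP0, RPLP1 and RPLP2, which recruit elongation factors, fell in KD by 0.40, 0.39 and 0.22 on the log2 scale and rose in OE by 0.24, 0.18 and 0.26. RPLP0 was at 3395 and 3447 CPM in NT, 2534, 2759 and 2494 in KD, 2884 and 2892 in EV and 3312, 3674 and 3236 in OE. Its OE samples lay above EV and its KD samples below NT. RPSA, which is a small subunit protein and was also described as a laminin receptor, changed by -0.50 in KD and 0.16 in OE. With the GC offset the OE change was 0.10 for RPLP0 and 0.05 for RPLP2, which was then not called, and the KD change of RPLP2 was -0.41. With the transcript length offset RPLP0, RPLP1, RPLP2 and RPSA were no longer called in OE.

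The 5S particle genes fell in both arms. RPL5 was at 1116 and 1085 CPM in NT, 632, 694 and 647 in KD, 856 and 834 in EV and 685, 666 and 669 in OE, and it fell by 0.74 in KD and 0.33 in OE on the log2 scale. RPL11 fell by 0.68 and 0.53. RPS6, whose protein is the classic substrate of S6 kinase, fell by 0.76 in KD, from 3208 and 3107 CPM to 1803, 1991 and 1795, and by 0.32 in OE, or -0.14 with the GC offset.

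Some ribosomal proteins are made as fusions with ubiquitin or a ubiquitin-like protein. RPS27A, a ubiquitin fusion, fell by 0.36 in OE, from 360.0 and 347 CPM in EV to 279, 272 and 275, and it was at -0.14 with the GC offset. FAU, a ubiquitin-like fusion outside the symbol rule, rose by 0.24, from 211 and 195 to 236, 254 and 227. In KD both fell, by 0.60 and 0.43 on the log2 scale. Of the 4 ribosomal protein genes outside the rule, among them FAU, RACK1 and RPL36AL, 4 fell in KD, 2 rose in OE and 4 were higher in the interaction. Among all tested genes 28.4% fell in KD, 25.6% rose in OE and 20.3% were higher in the interaction.

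Several genes serve as references or have known disease roles. RPL13A, the reference gene of the study's PCR, was at 4269 and 4326 CPM in NT and 2779.9, 3076 and 2749 in KD, a log2 change of -0.58 (edgeR, Benjamini-Hochberg adjusted p = 8.50e-10). No KD sample reached the NT range. In OE against EV it was at 3452, 3613 and 3381 against 3345 and 3279, a change of 0.07 (edgeR, Benjamini-Hochberg adjusted p = 0.261) that turned to -0.08 with a GC offset. RPS19, the most frequently mutated gene of Diamond-Blackfan anaemia, changed by -0.45 in KD and had a value of -0.02 in OE, which became a call at -0.21 with the GC offset (edgeR, Benjamini-Hochberg adjusted p = 0.000360). RPL3, at the peptidyl transferase centre, was at -0.59 in KD and -0.12 in OE, and the latter became a call at -0.27 with the length offset and -0.28 with the GC offset (edgeR, Benjamini-Hochberg adjusted p = 4.03e-05 and 2.96e-06). RPL10, which joins late in large subunit assembly, was at -0.48 and 0.07. RPS3, at the mRNA entry site, was at -0.49 and -0.08, the latter called at -0.18 with the length offset. RPL23A changed by -0.56 and 0.16, and its OE value was -0.00 with the length offset. RPL41, which encodes a very short peptide, was at -0.61 and 0.01, the latter called at -0.16 with the length offset. RPL39 changed by -0.77 and -0.23, the last no longer called with a GC offset.

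The transcripts' base composition moved with these changes. Transcript GC content ranged from 39.9% to 63.6% with a median of 47.5%, and all 82 genes had a MANE Select transcript. Over the 82 genes, the OE against EV change had a Spearman correlation of 0.70 with GC, and 0.45 over 14216 other tested genes. Of the 21 genes with the lowest GC (39.9% to 44.1%) 16 fell in OE and 0 rose, with a median of -0.32. Of the 21 with the highest GC (53.6% to 63.6%) 12 rose and 0 fell, with a median of 0.16. In KD against NT the correlation was 0.47, against 0.22 over the other genes, and the same 21 and 21 genes had medians of -0.69 and -0.41, with 21 and 20 lower. With an offset for GC, 11 genes rose and 36 fell in OE, and 1 rose and 78 fell in KD. These correlations describe genes that share 10 libraries.

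**Figure D4:**
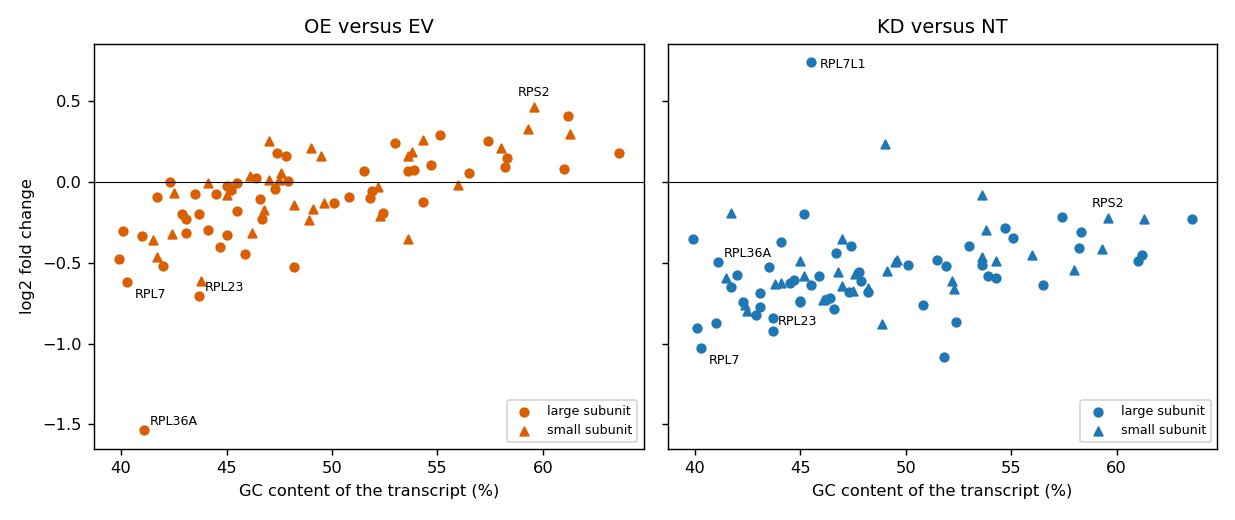
The log2 fold change (y axis) of the 82 ribosomal protein genes against the GC content of their MANE Select transcript (x axis, percent), for OE versus EV (left) and KD versus NT (right), with circles for the large and triangles for the small subunit. The left points rise from a median of -0.32 over the 21 genes of lowest GC to 0.16 over the 21 of highest GC, and on the right most points lie below 0 at every GC content.

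Levels of different genes were compared per kilobase of the MANE Select transcript. The median over genes of the mean of the 4 lines was 906 CPM per kb, 853 in the large and 995 in the small subunit. RPS18, RPS2, RPL13A, RPL7A and RPLP0 were highest, at 3734, 3705, 3097, 3064 and 2785 CPM per kb. At the other end were RPL10L at 2.85, RPS10 at 4.39, RPS27L at 7.39 and RPL36A at 7.67, and 10 genes lay below 10% of the median. The transcripts of 19 genes were longer than 2000 nucleotides, and the MANE transcript of RPS27L spans 6110, so such genes can read too low on this scale. By the union of all exons the median was 220.0 and the order changed, with RPS2 highest, RPL8 at rank 2, RPL7A at 3, RPS18 at 4 and RPLP0 at 10. The ratio of summed small to large subunit CPM was 0.518 and 0.517 in NT, 0.531, 0.525 and 0.527 in KD, 0.520 and 0.521 in EV, and 0.538, 0.535 and 0.538 in OE. All OE samples were above EV and all KD samples above NT. These sums weigh genes by their level, so a few abundant genes can move the ratio. RPS2 changed by 0.46 in OE and -0.22 in KD, where the small subunit medians were -0.02 and -0.55. The part of RPS2 in the ratio was not tested.

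Paralogs, here the relatives of a main gene, were compared with it by their ratio within each sample. The ratio of RPS27L to RPS27 had the interaction that came closest to the threshold, -0.92 on the log2 scale (exact permutation test, two-sided, 100 arrangements, p = 0.01, the smallest they can give, and 0.0600 after Benjamini-Hochberg adjustment over 6 pairs). The counts of RPS27L were 4.32% and 3.81% of those of RPS27 in NT, 6.72%, 6.03% and 6.87% in KD, 4.78% and 4.97% in EV and 4.14%, 4.12% and 4.19% in OE. Without an offset the ratio was above NT in every KD sample and below EV in every OE sample. RPS27L itself changed by -0.19 in KD, -0.10 and not called with the GC offset, while RPS27 fell by 0.88 there. In OE RPS27L changed by -0.47 and RPS27 by -0.24. These OE changes were -0.26 and -0.27 with the GC offset and -0.33 and -0.39 with the length offset. With the block and both offsets they were -0.20 and -0.34, so the lower ratio in OE depended on the processing.

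RPL7L1 stood at 7.93% and 9.14% of the counts of RPL7 in NT, 30.2%, 27.9% and 28.8% in KD, 18.7% and 19.1% in EV and 28%, 30.3% and 28.4% in OE. Both treated lines were above their controls, by 0.61 in OE and 1.77 in KD on the log2 scale. The interaction was -1.15 (exact permutation test, p = 0.31, adjusted 0.372). Labels were permuted within each arm, so a change present in both arms widens the permuted values. This p therefore cannot decide whether the arms differ. In the KD arm RPL7L1 rose and RPL7 fell, and in the OE arm RPL7 fell and RPL7L1 had a change of -0.01.

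RPL22L1 was the only relative with more counts than its main gene among the 5 pairs inside the rule. The counts of RPL22L1 were 303% and 287% of those of RPL22 in NT, 362%, 325% and 349% in KD, 239.9% and 250.1% in EV and 246%, 255% and 257% in OE. Per kilobase the ratio was 328% and 311% in NT. Both genes fell in both arms, RPL22 by 0.58 in KD and 0.52 in OE and RPL22L1 by 0.35 and 0.48. With the GC offset the OE changes were -0.32 and -0.19 and the KD change of RPL22L1 was -0.21. The interaction of the ratio was -0.18 (exact permutation test, p = 0.19, adjusted 0.372). Genes within 5 Mb of RPL22L1 had medians of -0.40 in KD and -0.43 in OE, and their part in its change was not tested.

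RPL26L1 had 40.2% and 39.9% of the counts of RPL26 in NT and 51.6%, 55.0% and 52.8% in KD. In EV it had 38.8% and 36.8%, and in OE 46.6%, 50.8% and 48.2%. The interaction of this ratio was -0.05 (exact permutation test, p = 0.76, adjusted 0.760). RPL26 shares 65.3% of its exon bases with another annotated gene on the same strand, so its counts may be those of a part of the reads only. RPL10L had 0.266% and 0.350% of the counts of RPL10 in NT and 0.126% to 0.220% in every other sample, with an interaction of 0.44 (exact permutation test, p = 0.31, adjusted 0.372). RPL36AL, outside the rule, exceeded RPL36A in counts in every sample, with an interaction of 1.47 (exact permutation test, p = 0.06, adjusted 0.180). None of the 6 pairs passed after adjustment. The exact permutation test with 100 arrangements gives p = 0.01 at the smallest. A single pair that reaches it stands at 0.0600 after adjustment over 6 pairs, so it could not pass alone. As for RPL7L1, a change within an arm widens the permuted values of any pair. These tests thus do not decide whether the arms differ. The exact permutation test of 2 against 3 samples within 1 arm cannot go below p = 0.1.

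**Figure D5:**
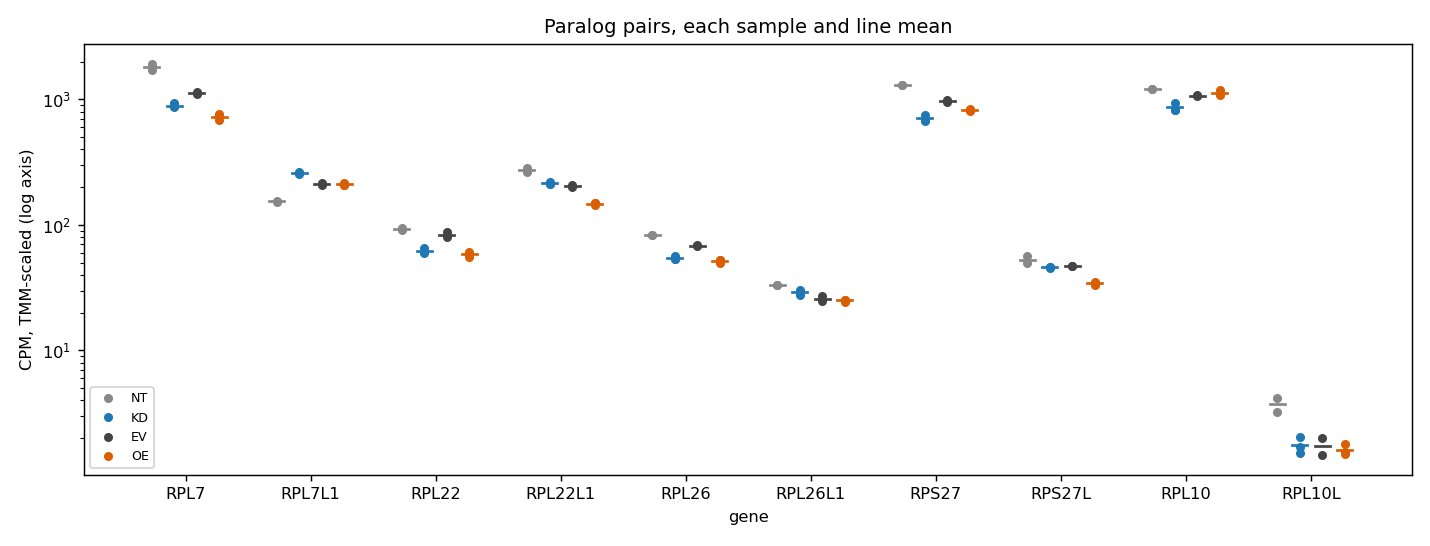
CPM after TMM scaling (y axis, log scale, not per length) of 5 main genes and their relatives (x axis, side by side), one point per sample, a line at each mean, and colours for NT (grey), KD (blue), EV (dark grey) and OE (orange). RPL7L1 is the gene whose KD samples, 253 to 262, all lie above NT, 153 and 156.

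The start of the transcripts shows what most of these genes share and where relatives differ. Windows of 30 bases, from 10 before a RefSeq transcript start to 20 after it, were read from RefSeq promoter sequences on GRCh38.p14, and the start with the longest pyrimidine run was kept for each gene. The motif searched was a run of at least 8 C or T in the transcribed strand. It was present in 54 of the 67 genes with a start in the table (80.6%), in 33 of 42 large and 21 of 25 small subunit genes, against 15.4% of all 27305 genes with a start. A run of at least 8 A or G, the same motif on the other strand, was in 5.97% of the 67 and 13% of all genes. Shown are genes that fell or rose most, followed by main genes with their relatives. Capitals mark the longest run of C and T.
RPL31, chr2:101002279-101002308, plus strand: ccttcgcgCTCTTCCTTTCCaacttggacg
RPS24, chr10:78033853-78033882, plus strand: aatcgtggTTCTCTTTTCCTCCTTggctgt
RPS9, chr19:54200848-54200877, plus strand: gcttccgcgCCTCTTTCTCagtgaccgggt
RPL28, chr19:55385922-55385951, plus strand: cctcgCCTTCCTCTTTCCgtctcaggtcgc
RPL7L1, chr6:42879606-42879635, plus strand: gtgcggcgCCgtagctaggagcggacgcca
RPL26, chr17:8383174-8383203, minus strand: gcgtgtagTTCTCTTCCCTTTTgcggccat
RPL26L1, chr5:172958719-172958748, plus strand: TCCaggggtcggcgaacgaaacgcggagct
RPS27, chr1:153990752-153990781, plus strand: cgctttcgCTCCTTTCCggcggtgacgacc
RPS27L, chr15:63157458-63157487, minus strand: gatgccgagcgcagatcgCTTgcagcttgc
RPL22, chr1:6199576-6199605, minus strand: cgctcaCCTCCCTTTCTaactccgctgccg
RPL22L1, chr3:170870176-170870205, minus strand: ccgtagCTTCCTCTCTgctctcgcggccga

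RPL7L1, RPL26L1 and RPS27L had no run of 8, with 2, 3 and 3 bases as their longest, while RPL22L1 had 10 and RPL22 11. The other genes without a run were RPL10L, RPL12, RPL17, RPL3, RPL32, RPL36, RPL6, RPS29, RPS3A and RPS4X. In KD against NT the 54 genes with a run and the 13 without one had the same median, -0.58. Among other tested genes the medians were -0.04 for 1804 with a run and 0.04 for 9023 without. RPL12, RPL3 and RPS29 have no run in this window, which says only that these letters are absent there. The 15 genes with no entry included RPL23, RPL23A, RPL30, RPL37, RPL5, RPL7, RPL8, RPS15A, RPS2 and RPS20.

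Other mRNAs known for the TOP motif or for translation factors fell with the ribosomal protein genes in KD. Of 35 tested genes of such a list 32 fell and 1 rose, PABPC4 (0.24), with a median of -0.56. Among all tested genes 28.4% fell and 29.1% rose in KD. EEF1A1, the factor that brings tRNA to the ribosome, was at 10608 and 10366 CPM in NT and 5497, 6135 and 5417 in KD, a log2 change of -0.88. In OE 22 of the 35 fell and 1 rose, EIF3G (0.46), with a median of -0.26, against 26.4% and 25.6% of all tested genes. EIF3G also had one of the 3 smallest interaction p of the list, at 0.79, beside SNHG8, a small nucleolar RNA host gene, at 0.80 and NACA, a chaperone of nascent chains, at 0.70. In the interaction 25 were higher and 5 lower, and in EV against NT 25 were lower and 0 higher.

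The counts for genes that serve ribosomal proteins stand beside those of all tested genes, of which 29.1% rose and 28.4% fell in KD and 25.6% and 26.4% in OE. Among 18 chaperones and importers 7 rose and 4 fell in KD, and 5 rose and 7 fell in OE, with medians of 0.14 and 0.10. IPO9, an importer of ribosomal proteins, rose by 0.64 in KD and fell by 0.30 in OE. NOP53, an assembly factor, fell by 0.56 in KD, and BCCIP, a partner of RPL23, fell by 0.89 in OE. Among 26 regulators of ribosomal protein mRNAs, against the same shares, 12 rose and 6 fell in KD, and 9 rose and 9 fell in OE, with medians of 0.05 and -0.02. MTOR was at 103 and 101 CPM in NT, 147, 158 and 147 in KD, 178 and 176 in EV and 155, 161 and 162 in OE. It thus rose by 0.56 in KD and fell by 0.15 in OE, and NT was the line that stood lowest. HNRNPD, a binder of mRNA stability elements, rose by 0.64 in KD. These are mRNA levels and do not measure kinase or translation activity.

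Reads assigned to pseudogene rows were a small part of the total. The handling of reads that fit more than 1 gene was not given, so this share does not measure how many reads fit both. The 82 genes had 1144 rows named as pseudogenes of 77 of them, with 0.813% to 1.06% of the summed counts per sample. For 6 genes the share was above 5%, RPS10 (87.3%), RPS2 (9.07%), RPL26 (8.45%), RPL36A (7.53%), RPL9 (7.12%) and RPS15A (5.52%), of which RPL9 and RPS15A are named after their values were seen. Of 98 pseudogene rows that passed the filter, 51 fell and 3 rose in KD, and 11 fell and 11 rose in OE. Among all tested genes 28.4% fell and 29.1% rose in KD, and 26.4% fell and 25.6% rose in OE. With these reads added to the parent genes, 80 of 82 genes fell in KD and 1 rose, and 17 rose and 31 fell in OE.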

How the data were processed

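RNA of 10 samples of LNCaP-C4-2 lines was sequenced in pairs from poly(A) libraries. The deposited values are whole-number counts of reads per gene, made by the authors by trimming with BBDuk, discarding reads under 50 bp, and aligning and quantifying with STAR 2.6.0a against the Ensembl hg38 transcriptome. The strand setting and the handling of multi-mapping reads were not given in the sources used here. All 10 sample columns were used.

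Samples were grouped by line from the labels. The filter filterByExpr kept 17230 genes. After TMM scaling, the quasi-likelihood test of edgeR 4.0.16 (R 4.3.3) was run with 1 mean per line over all 10 samples, and Benjamini-Hochberg adjustment covered every tested gene. A gene was called at 0.05. Depth was 23555205 to 28615770 counts, so 3 counts correspond to 0.0995 to 0.136 CPM, which covers counting error only. The common biological coefficient of variation was 0.0446. Paralog ratios were compared by exact permutation within each arm. Positions, lengths and GC come from GENCODE v44 by symbol, which placed 83.0% of tested genes and all 82 members. Alternatives were DESeq2 1.42.0, limma-voom (limma 3.58.1, the study's package), other scalings, filters and limits, GC and length offsets, pseudogene reads added, and each sample left out. On simulated data for KD versus NT with 16847 genes, edgeR recovered 60.6% of 99 genes changed by 0.5 on the log2 scale. It recovered 79.6% of 98 changed by 1, and made 11 false calls and 0 calls of wrong sign. Few genes were changed there, and in KD alone. In the real data 9905 of 17230 genes were called in KD against NT, so these rates do not carry over to it.

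Members, gene lists and named genes were chosen with earlier results of these data known. The 37 members named by rule were the 5 highest and 5 lowest called changes in each comparison, paralogs, the P-stalk genes, RPSA, and genes with textbook roles; of each list, the 3 genes with the smallest interaction p were named. Other genes were named after their values were seen, among them EEF1A1, PABPC4 and the extremes of level per length. Values of some genes the rule names are not reported here, and 5 members are left out of the plot of both arms.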

Additional observations from a re-analysis of the deposited data

Results flagged for a closer look

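Rows named as pseudogenes were outside the comparisons of the 82 genes, and 14 changes among them rose above the control line (edgeR, Benjamini-Hochberg adjusted p under 0.05). In OE against EV the log2 changes were 0.70 for RPL13P5, 0.38 for RPL18AP3, 0.38 for RPL23AP82, 1.16 for RPL5P4, 0.76 for RPLP0P2, 0.30 for RPLP0P6, 0.60 for RPLP1P6, 0.69 for RPS10P5, 0.73 for RPS11P5, 0.25 for RPS2P46 and 0.29 for RPS2P5. In KD against NT they were 1.00 for RPL23AP2, 0.75 for RPLP0P2 and 1.15 for RPSAP47. RPLP0P2 was higher in both arms. Of 98 such rows tested, 11 rose and 11 fell in OE, and 3 rose and 51 fell in KD. Among all tested genes 25.6% rose and 26.4% fell in OE, and 29.1% rose and 28.4% fell in KD. Whether these reads come from the pseudogenes or from their parents was not tested. Groups of 2 and 3 samples were not searched for outlying values of single genes.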

How the results depend on the processing

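The total number of called genes stayed within 1.5 times under every alternative run, with the exceptions given here. Its split in OE against EV, 17 higher and 31 lower, moved further, to 9 and 48 with library size alone, 5 and 48 with the length offset, 11 and 36 with the GC offset and 7 and 43 with the block and both offsets. At an adjusted p under 0.0001, 22 genes were called in OE against EV (5 higher, 17 lower) and 37 in EV against NT (1 higher, 36 lower). The level per length fell to 220.0 CPM per kb with the union of exons, since that length is longer. Leaving out each sample in turn gave 36 to 53 called in OE against EV, 78 to 81 in KD against NT, 69 to 75 in the interaction and 58 to 76 in EV against NT, and where it left 1 control sample, that sample was assumed to vary like the other lines. With 2 controls per arm and no multi-mapping rule, small changes and genes that share reads are least certain.

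The replicate numbers did not pair the samples (mean correlation -0.00282 over 13 pairs with a shared number, 0.00156 over 24 others). With the replicate block 48 genes were called in OE against EV (19 higher, 29 lower), 80 in KD against NT, 73 in the interaction and 74 in EV against NT.

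Over the named genes and alternatives, 3161 values kept direction and call, 75 lost the call, 45 gained it and 49 changed sign. Those that changed sign were mostly near 0, and the cause was not tested. In OE against EV these were RPL7L1 at 0.01 with DESeq2 size factors, no filter or the DESeq2 test. With library size alone they were RPS29 at -0.06, RPL10 and RPL13A at -0.03 and RPL41 at -0.09, and with a minimum of 10 counts per sample RPL41 at -0.00. With the replicate block they were RPS19 at 0.02 and the small subunit median at 0.00. With the length offset they were RPL7L1 at 0.07, RPS29 at -0.11, RPL10 at -0.03, RPL13A at -0.08, RPL23A at -0.00 and RPL41 at -0.16. With the GC offset they were RPL7L1 at 0.06, RPL10 at -0.03, RPL26L1 at 0.03, RPL13A at -0.08 and the small subunit median at 0.01. With the block and both offsets they were RPS15 at -0.03, RPL7L1 at 0.08, RPL10 at -0.06, RPLP2 at -0.02, RPL13A at -0.14 and RPL41 at -0.08. Over the fits without 1 sample each, RPL10L ranged from -0.30 to 0.16, RPL7L1 from -0.02 to 0.03, RPL26L1 from -0.10 to 0.03, RPS19 from -0.08 to 0.05, RPS29 from -0.00 to 0.09, RPL41 from -0.01 to 0.04 and the small subunit median from -0.07 to 0.02. In the interaction, RPS24 was at -0.11, -0.13 and -0.06 with library size, the length offset and the block with both offsets, and it ranged from -0.04 to 0.10 over the fits without 1 sample. RPL22 was at -0.08 with library size and ranged from -0.01 to 0.14 without 1 sample, and RPL22L1 at 0.02 with the GC offset. In EV against NT, RPL36A was at 0.03 with the GC offset, 0.10 with the block and both offsets and ranged from -0.16 to 0.02 without 1 sample, and RPS2 ranged from -0.09 to 0.00.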
